A study of Macaca mulatta with 64 samples.

Results

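CAGE-seq signal of genes in the cerebellar cortex (CB) of the rhesus macaque (Macaca mulatta) was compared between libraries of 10- and 20-yr-old animals (older) and of 1- and 4-yr-old animals (younger). CAGE-seq is designed to capture the capped 5′ ends of polyadenylated RNA, so that a tag is meant to mark a position where a transcript begins. In these libraries part of the signal lay near the 3′ ends of genes, as given below, so a tag need not mark an annotated start. Tags less than 20 nt apart form a tag cluster (TC), and the level of a TC is given as TPM, its number of tags scaled to all tags sequenced in that library; gene length plays no part in it. The series covers 8 brain regions at 4 ages in both sexes with 64 CAGE-seq libraries, of which 8 are from CB: 1 female and 1 male library at 1, 4, 10 and 20 yr. The study describes postmortem tissue of animals raised outdoors in a social setting, with health records kept. The libraries differed in age and sex alone as far as the labels say, and no treatment or strain is named. CB tissue was dissected at the posterior end of the cerebellum, and 2 females and 2 males of each age were used in the study. Per the study, each RNA-seq library stood for an age- and sex-matched pair and CAGE-seq used the same samples, so a library is not a single animal and the p-values below measure the spread between these libraries. The TPM of all TCs assigned to a gene were summed, and the 1811 of 13269 genes with at least 1 TPM in 4 or more of the 8 CB libraries were compared; 1353 of them carry a gene symbol.

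The cerebellar cortex is built from very many small granule cells, whose parallel fibers excite the large Purkinje cells, the only neurons that send axons out of the cortex. Bergmann glia, a radial form of astrocyte, ensheathe the Purkinje cell synapses, and oligodendrocytes wrap the axons of the white matter in myelin. Purkinje cells are among the neurons known to be lost with age in several mammals, and the cerebellum is still maturing in the juvenile animal.

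Markers of these cells were present, although thinly. CALB1, the calcium buffer calbindin of Purkinje cells, was listed in all 8 libraries, at 1062 to 1421 TPM in the younger and 529 to 2120.0 TPM in the older ones. CBLN1, the synaptic organizer secreted by granule cells, ranged from 359 to 1518 TPM, and NEUROD1, a granule cell transcription factor, from 20.4 to 1435 TPM. MBP, a myelin protein, was listed in all 8 libraries and GFAP, the astrocyte filament protein, in 7. Among other defining granule cell genes, ZIC1 and GABRA6 reached 74.1 and 42.1 TPM at most and were each listed in 3 libraries. PCP2 was not analysed here. The 4 genes of meninges, choroid plexus and blood found in the table were at 0 in every library.

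The libraries differed far more in how many genes they listed than in sequencing depth. In the order female then male of 1, 4, 10 and 20 yr, which all rows of 8 values below follow, they listed 3615, 2855, 1881 and 1604 genes in the younger group and 545, 1328, 2176 and 3048 in the older group. The number was lowest at 10 yr and highest at the youngest and oldest ages, and the groups overlapped (exact permutation test, two-sided, p = 0.400). The library of 10-yr-old females stood apart: it listed 442 of the 1811 genes tested, against 978 to 1685 in the others, although its estimated depth of 5797000 tags was the highest of the 8, the others having 3210000 to 3853500. Depth was estimated from the step between neighboring low values, at which the smallest listed value of a TC equals 4 to 6 tags. A value of 0 therefore means no listed TC rather than no tag. In all, 517 of the 1811 genes were listed in only 4 CB libraries and 197 in all 8. The main counts and medians are therefore also given without the library of 10-yr-old females.

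No gene passed the test between older and younger CB. With limma on log2(TPM + 1), 0 of 1811 genes reached an adjusted p under 0.05 in either direction (0.0% of those tested), and the smallest adjusted p was 0.301; 119 genes had an unadjusted p under 0.05, 99 of them lower and 20 higher in the older libraries, and no other tool was run. The median difference of the 1811 genes was −0.87 on this scale, with 1196 genes below and 615 above 0. Without the library of 10-yr-old females the median was −0.12, and over the 197 genes listed in all 8 libraries it was 0.13. The median standard error was 2.16, so the typical 95% confidence interval reached 4.66 log2 units to either side, and moderate differences were not detectable with these libraries. In bulk tissue a lower value cannot be told apart between fewer cells of a type and less RNA per cell.

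**Figure D1:**
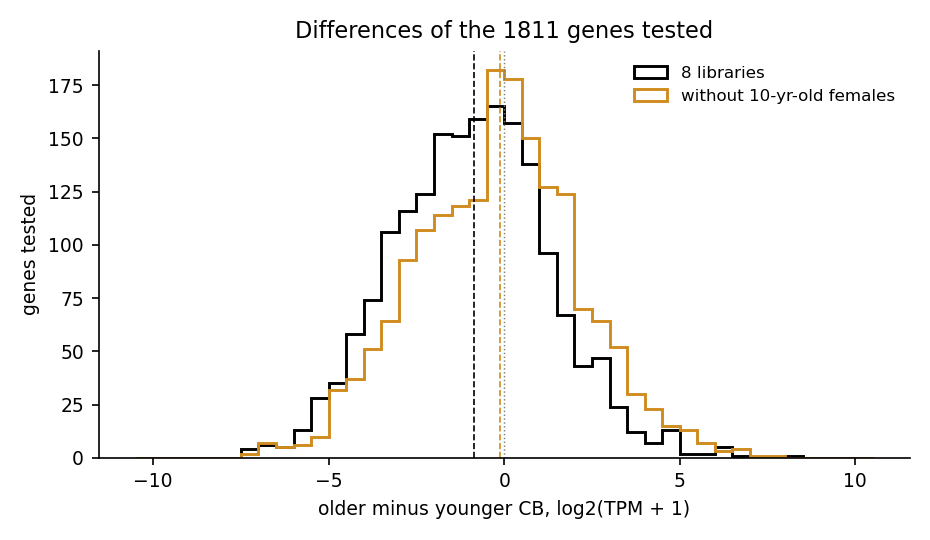
Distribution of the older minus younger difference in CB, in log2(TPM + 1) on the horizontal axis, over the 1811 genes tested (vertical axis, number of genes), with all 8 libraries in black and without the library of 10-yr-old females in orange. Dashed lines mark the medians, −0.87 and −0.12, and the dotted line marks 0.

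Although no gene passed, the values of 58 genes did not overlap between the groups. In 46 genes every older library was below every younger one (2.54% of the genes tested), and in 12 every older library was above (0.663%). Of the 46 lower genes, 12 were listed in all 4 younger libraries and in no older one, whereas 1 gene showed the reverse. Under the filter such a gene is tested only if all 4 libraries of its higher group list it. Its groups then cannot overlap, so the non-overlap and small p of these 12 genes are set in part by the filter. The genes with a symbol and the smallest unadjusted p among them, 12 lower and all 7 higher, are described next; their adjusted p in limma ranged from 0.301 to 0.986, so none is called changed.

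Several of the lower genes act in RNA processing and transcription. THOC2 (ENSMMUG00000003745) encodes the largest subunit of the THO complex, which couples transcription to export of mRNA from the nucleus. It stood at 64.85, 193, 463 and 176 TPM in the younger libraries and was listed at 0 in all 4 older ones, a difference of −7.49 ± 1.59 (SE, n = 4 against 4) in log2(TPM + 1), with a limma p of 0.000378 and an adjusted p of 0.301. All of its signal came from 1 TC, 79696 nt inside a gene of 102759 nt on the minus strand of chromosome X (121825245 to 121928003, MMUL 1.0), which is far from the annotated start. CLK4, a kinase that phosphorylates splicing factors, was at 66.5, 74.4, 197 and 397 TPM in the younger libraries and likewise at 0 in every older one. Its TCs lay at or near the annotated start but at different positions. A TC at the start itself held 397 TPM in 4-yr-old males, and a TC 20 nt before it held the signal of 1-yr-old males and 4-yr-old females. THRA, the thyroid hormone receptor alpha through which thyroid hormone acts on cerebellar maturation, was at 125, 229, 138 and 213 TPM in the younger libraries and at 5.18, 0, 8.02 and 4.68 TPM in the older ones. THRA is the one of the 12 that was listed in 3 of the 4 older libraries, and it differed by −5.35 ± 1.62 (SE).

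A second set of lower genes belongs to phosphorylation signalling and protein turnover. PPP2R5D, a regulatory subunit of protein phosphatase 2A, was at 122, 91.5, 186 and 111 TPM in the younger libraries and at 0 in all older ones. RPS6KB2, a ribosomal protein S6 kinase of the mTOR pathway, was at 61.5, 92.4, 69.2 and 605 TPM against 0 in all 4 older libraries. TRIM44, a tripartite motif protein linked to the ubiquitin system, had the most even younger values, 310.0, 420.1, 462 and 387 TPM, and stood at 0, 0, 4.30 and 9.09 TPM in the older libraries. The TC carrying most of the TRIM44 signal, 91.8% of it, lay 231 nt inside the gene and was listed at 0 in every older library. UNC45A, a co-chaperone of HSP90 and myosin, was at 90.3, 16.5, 145 and 93.5 TPM in the younger libraries and at 2.58 TPM in 20-yr-old females alone among the older ones.

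The remaining lower genes serve membranes, synapses and metabolism. CACNG7, an auxiliary subunit of AMPA-type glutamate receptors, was at 117, 377, 48.7 and 740.0 TPM in the younger libraries and at 15.8 TPM in 20-yr-old females with 0 in the other older ones. LRRC4B, a synaptic adhesion protein, was at 62.6, 70.6, 37.7 and 144 TPM and then at 5.19 TPM in 20-yr-old males only. COG7, part of the Golgi tethering complex, was at 219, 84.7, 15.0 and 178 TPM against 0 in all 4 older libraries. For these genes the gap between the lowest younger and the highest older value was narrow, and for COG7 the lowest younger value was itself 15.0 TPM. SULT4A1, a sulfotransferase-like protein of neurons, was at 13.1, 64.1, 61.8 and 248 TPM against 0 in all older libraries. UGP2, which makes the UDP-glucose used for glycogen, was at 137, 26.5, 503 and 624 TPM and reached 16.4 TPM in 20-yr-old males.

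The genes that stood higher in all older libraries include 2 subunits of RNA polymerase II. POLR2J (ENSMMUG00000012019) was at 397, 49.1, 0 and 0 TPM in the younger libraries and at 4521, 3277, 4931 and 1333 TPM in the older ones. Its difference of 8.05 ± 2.13 (SE) had a limma p of 0.00219 and an adjusted p of 0.444. The signal sat at the annotated start on the minus strand of chromosome 3 (49746162 to 49751864, MMUL 1.0), at 3 neighboring sites. A TC 27 nt inside the gene, with 68.3% of the signal, was listed at 2547, 2433, 4925 and 0 TPM in the older libraries and at 0 in every younger one, whereas a TC 71 nt before the start held most of the signal of 1-yr-old females (388 TPM), part of that of 10-yr-old males (843 TPM) and that of 20-yr-old males (1333 TPM). The third, 34 nt before the start, held 1974 TPM of 10-yr-old females and all 49.1 TPM of 1-yr-old males. The human genome holds near-identical copies of POLR2J, and reads that aligned to more than 1 place were discarded in the study, so its level rests on tags unique to this locus. POLR2I, which encodes a zinc-ribbon subunit of the same enzyme, was at 2152, 1344, 2406 and 2432 TPM in the younger and 3154, 3278, 5865 and 3098 TPM in the older libraries. The older mean was 1.85 times the younger one, with a difference of 0.87 ± 1.56 (SE), and 98.7% of the POLR2I signal lay in a TC 452 nt inside the gene that was also higher in all older libraries.

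Chaperones form the next pair. HSPB6, a small heat shock protein, was at 13.4, 6.47, 19.6 and 13.6 TPM in the younger libraries and at 193, 514, 27.5 and 80.45 TPM in the older ones. Its older mean was 15.4 times the younger one, the largest ratio among the named genes listed in all 8 libraries, although the older values themselves spread widely. CLU, the extracellular chaperone clusterin that astrocytes secrete, was at 8462, 8903, 9332 and 9206 TPM in the younger libraries and at 12409.6, 11292, 17718 and 14923 TPM in the older ones. The younger libraries lay within a narrow band, 8976 ± 387 TPM (SD, n = 4), and the older ones at 14086 ± 2858 TPM, 1.57 times higher. The model, which draws the variance of each gene toward a value common to all genes, gave CLU a difference of 0.63 ± 1.55 (SE) and an adjusted p of 0.986. The CLU gene lies on the minus strand of chromosome 8 (27744312 to 27761664, MMUL 1.0), and a TC 153 nt inside it carried 83.9% of its signal and was by itself higher in every older library.

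The other 3 higher genes with a symbol have roles in signalling, transport and nucleotide metabolism. PPP1CA, a catalytic subunit of protein phosphatase 1, was at 154, 313, 184 and 566 TPM in the younger and 1563, 707, 689 and 714 TPM in the older libraries, 3.02 times higher on the means. UCK1, a uridine-cytidine kinase, was at 349, 355, 257 and 17.3 TPM against 890.4, 844, 425 and 410.3 TPM, a ratio of 2.62. FEZ1, a kinesin adaptor of axonal transport, was at 84.7, 548, 463.5 and 193 TPM against 558, 553, 1252 and 603 TPM. For FEZ1 the groups were separated by only a few TPM, between 548 in 1-yr-old males and 553 in 10-yr-old males, while the means differed 2.30-fold.

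**Figure D2:**
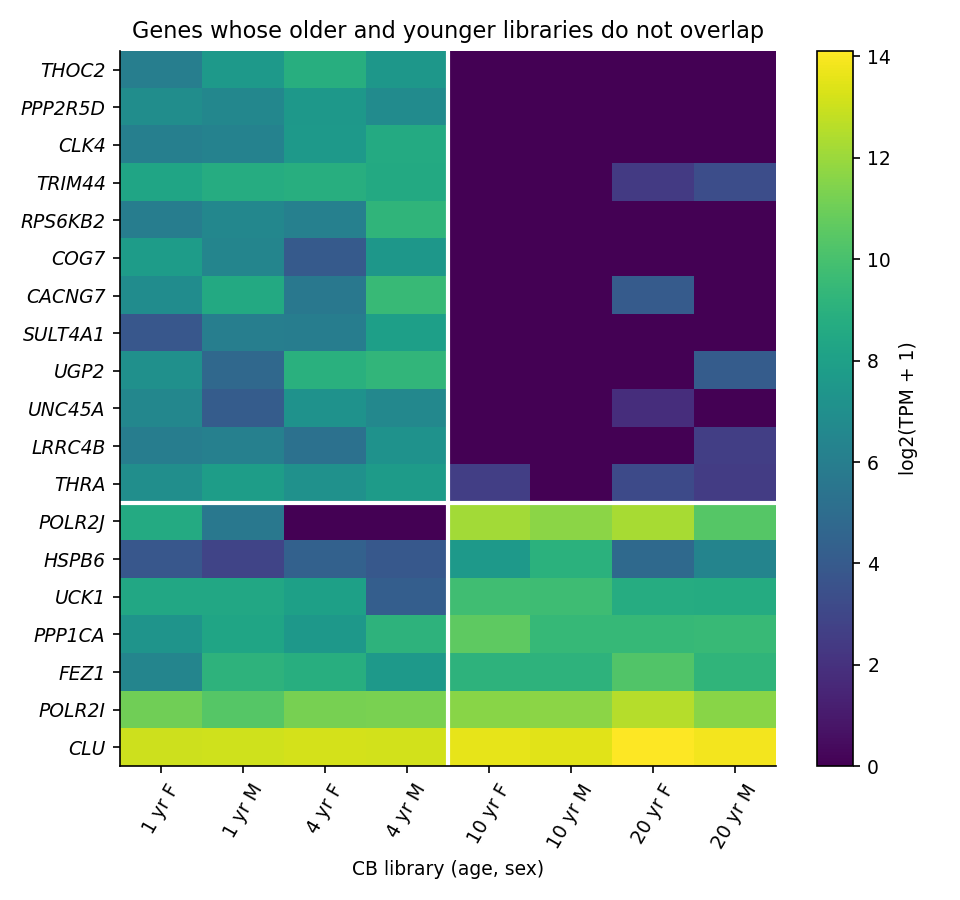
Level of the 12 lower and 7 higher named genes (rows, italic symbols) in each CB library (columns, age and sex), colored by log2(TPM + 1) from 0 (dark) to the highest value (yellow). White lines part lower from higher genes and younger from older libraries; the lower genes are dark across the 4 older columns, most of them at 0.

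Because a gene listed in few libraries can differ through the listing alone, the 197 genes listed in all 8 libraries were examined separately. Here 7 genes stood higher (3.55% of the 197) and 5 lower (2.54%) in every older library, and 108 of the 197 had a difference above 0. In a limma fit of these 197 genes alone, 15 had an unadjusted p under 0.05, none passed, and the smallest adjusted p was 0.419. The higher ones with a symbol are HSPB6, UCK1, PPP1CA, FEZ1, POLR2I and CLU, given above; the lower ones with a symbol are KNOP1, CHGB and SYP. These last 3 were outside the 12 lower genes with the smallest p and are named after their values were seen, except SYP, which is also among the 10 most abundant genes.

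Both neuronal genes among them encode proteins of secretory vesicles. SYP, the synaptic vesicle protein synaptophysin, was at 12394, 12159, 8369 and 7949.8 TPM in the younger libraries and at 1798, 4968, 3968 and 6558 TPM in the older ones. The group means were 10218 ± 2385 and 4323 ± 1993 TPM (SD, n = 4 each), the lowest value being that of 10-yr-old females, and the difference was −1.36 ± 1.57 (SE) with an adjusted p of 0.945. CHGB, chromogranin B of dense-core vesicles, was at 3486, 2207, 3162 and 3003 TPM in the younger and 1618, 834, 846 and 966 TPM in the older libraries, 2965 ± 544 against 1066 ± 373 TPM on average. For CHGB the library of 10-yr-old females was the highest of the older group, above the other 3 at 834 to 966 TPM. KNOP1, a lysine-rich nucleolar protein, was at 611, 434, 665 and 405 TPM against 3.79, 84.4, 182 and 227 TPM. Without 10-yr-old females, its lowest library, the difference of KNOP1 was −1.76 in place of −3.01.

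The position of this signal differed between the genes. Most SYP tags, 71.9%, came from a TC 11157 nt inside a gene of 11995 nt, on the minus strand of chromosome X (47040561 to 47052555, MMUL 1.0), near its 3′ end and away from the annotated start. CHGB was alike, with 58.3% of its signal 11965 nt inside its 13895 nt on chromosome 10 (39211110 to 39225004, plus strand). The main TC of KNOP1 lay 28 nt inside the gene, which is at the annotated start.

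**Figure D3:**
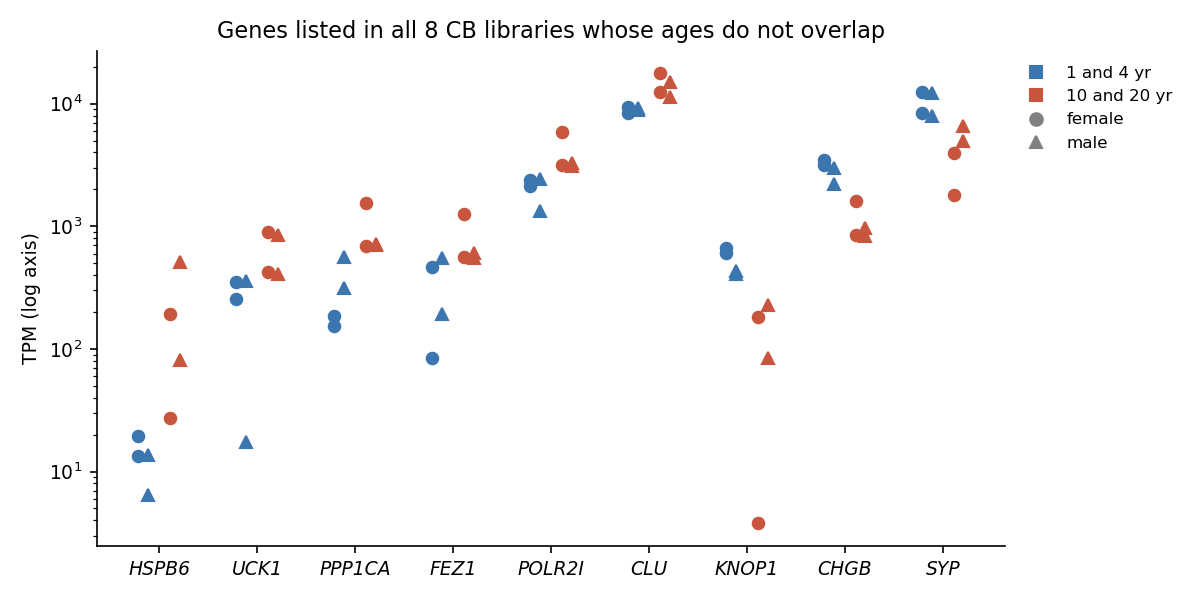
TPM (vertical log axis) of the 9 genes with a symbol that were listed in all 8 CB libraries and did not overlap between ages; each point is 1 library, circles female and triangles male, with younger libraries to the left in blue and older ones to the right in red. In HSPB6, UCK1, PPP1CA, FEZ1, POLR2I and CLU all red points lie above the blue ones, and in KNOP1, CHGB and SYP all lie below.

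Leaving out the library of 10-yr-old females changed the balance of the genes that did not overlap. Without it 62 of the 1811 genes were higher and 59 lower in all 3 remaining older libraries than in all 4 younger ones. In the omitted library 45 of the 62 higher genes were listed at 0, a share close to that of all genes tested (1369 of 1811). Of the 412 genes listed in all 7 other libraries, 21 were higher and 15 lower. In the fit without this library 107 genes had an unadjusted p under 0.05, and the smallest adjusted p was 0.302. Examples chosen after their values were seen are DYNLL1, a dynein light chain, at 471, 305, 407 and 315 TPM in the younger libraries, 0 in 10-yr-old females, and 1119, 1835 and 1218 TPM in the other older ones. CPLX1, the complexin that clamps synaptic vesicle fusion, was at 207, 248, 222 and 136 TPM, then 0, and then 1152, 567 and 332 TPM. Both genes are thus split between the omitted library and the remaining older ones, on opposite sides of the younger values. In the other direction RAB13, a small GTPase of membrane traffic, was at 637, 1229, 2163 and 1582 TPM in the younger libraries, 0 in 10-yr-old females and 343, 231 and 292 TPM in the others. RAB13 was lower in every older library with or without that library.

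Of the 10 genes with the highest mean TPM in CB, CLU and SYP did not overlap between the groups, as given above, and the other 8 did. HYPK, a ribosome-associated partner of the N-terminal acetyltransferase NatA, had the highest mean and was at 29747, 28943, 47095 and 39081 TPM in the younger and 23936, 42235, 37447 and 34377 TPM in the older libraries. The 2 groups overlapped fully, with a difference of −0.07 ± 1.55 (SE). GPX4, the peroxidase that reduces lipid hydroperoxides, was at 9111, 5559, 8188 and 4778 TPM in the younger and 7967, 12134, 21294 and 11533 TPM in the older libraries. Its older mean was 1.92 times the younger one, but 10-yr-old females lay below 2 of the younger libraries. GAP43, a growth cone protein, overlapped as well, at 7064, 6468, 5609 and 7513 TPM against 2440.4, 4796, 4125 and 7638 TPM. BEX1, a neuronal adaptor protein of the growing axons list, was at 5434, 4427, 9624 and 8346 TPM in the younger libraries and at 295, 2731, 2846 and 5529 TPM in the older ones, where only 20-yr-old males exceeded any younger library. SNCB and NEURL4 also overlapped, with differences of −0.05 and 0.17, as did RBM42 (0.01) and CA11 (0.38).

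Lists of cell type markers were compared with the median of all genes tested, −0.87 with and −0.12 without the library of 10-yr-old females, and 0 members of any list passed the test (0.0% of all genes tested). Of the 5 granule cell genes tested, 3 had a difference above 0 and CBLN1 and CBLN3 were below it, at −0.46 and −0.81; the median was 1.16 (0.89 without that library). Of the other granule cell genes, listed in too few libraries to be tested, ZIC4 (named after its values were seen) was at 247, 223, 0 and 686 TPM in the younger libraries and at 0 in all older ones, and ZIC1 was also at 0 in all older ones. GABRD and GRM4, likewise untested and named after their values were seen, went the other way. GABRD was at 0 in all younger libraries and at 3063, 0, 6.02 and 203 TPM in the older ones. GRM4 was at 68.8, 0, 0 and 0 TPM against 0, 2.18, 0 and 433 TPM. The older mean was also lower for PAX6, GABRA6, FAT2, SLC17A7 and CADPS2, and higher for ZIC2. NEUROD2, another granule cell transcription factor, was at 1.68, 0, 7.95 and 0 TPM in the younger and 0, 36.5, 81.1 and 118 TPM in the older libraries. Of 5 Purkinje cell genes 4 were below 0, the median being −0.28 and −0.36. HOMER3, a scaffold protein of Purkinje cell synapses, was at 194, 366, 234 and 116 TPM against 0, 30.5, 409 and 338 TPM. The groups overlapped for HOMER3, the 2 lowest values and the highest being those of older libraries.

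Among glia, the summed TPM of the 14 Bergmann glia and astrocyte markers found in the table was 10019 to 11164 in the younger and 12618 to 21903 in the older libraries. These ranges did not overlap, but the sum is mostly CLU, which is one of the 12 higher genes above; of the 6 members tested 2 were above and 4 below 0, with a median of −0.22, and 0.40 without 10-yr-old females. APOE, the astrocyte lipid carrier, was at 449, 623, 306 and 0 TPM in the younger libraries and at 7666, 599, 801 and 783 TPM in the older ones. The single value of 7666 TPM came from 1 TC near the 3′ end of the gene, 2620 nt inside its 2828 nt, and the other older libraries lay close to the upper younger values. Of 6 myelin genes 4 were below 0 (median −1.06 and −0.95), and MBP was at 1801, 1089, 1507 and 1230.5 TPM against 2751, 3584, 1327 and 1609 TPM. MBP was highest in the 2 libraries of 10-yr-old animals and overlapped at 20 yr. Of 6 microglial and immune genes 5 were below 0 (median −1.81 and −1.33), the ferritin light chain FTL being at 122, 68.8, 179 and 3.96 TPM against 0, 206, 0 and 0 TPM. Of the endothelial list only the glucose transporter SLC2A1 was tested, at 109, 124, 245 and 47.9 TPM against 0, 88.8, 4.59 and 44.4 TPM. The summed endothelial markers ranged from 109 to 798 TPM in the younger and from 0 to 88.8 TPM in the older libraries, with PECAM1, FLT1 and CDH5 at 0 in all 8. Of the 798 TPM, in 4-yr-old males, 750 TPM came from VWF, which was listed in that library alone. ITM2A and PDGFRB were likewise listed in 1 younger library each, and the groups overlapped for SLC2A1. For inhibitory neurons and oligodendrocyte precursors no gene was tested.

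Lists of neuronal function were mostly below 0, as were 1196 of all 1811 genes tested. Of 8 genes of growing axons and immature neurons 7 were below 0, with a median of −1.64 (−0.90 without 10-yr-old females). MAP1B, a microtubule-associated protein of axons, was at 374, 533, 41.0 and 341.5 TPM in the younger and 0, 14.3, 237 and 406 TPM in the older libraries. Of 9 synaptic vesicle genes 7 were below 0 (median −0.71, and −0.07 without that library), SYP among them; SNCG, gamma-synuclein, ran from 36.5 to 5239 TPM in the younger and from 119 to 13527 TPM in the older libraries. Among 6 calcium signalling genes 5 were below 0 (median −1.37 and −0.52), and among 3 voltage-gated ion channel genes 2 were (−0.37 and −1.67). CACNA1A, the P/Q-type calcium channel of Purkinje cells, was at 151.5, 157, 68.9 and 3.96 TPM against 0, 0, 239 and 0 TPM. Its highest value of all was thus that of 20-yr-old females, an older library.

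Genes of redox defence were the largest list with a median above 0. Of 7 tested 5 were above 0, with a median of 0.90 and of 1.11 without 10-yr-old females, against medians of −0.87 and −0.12 over all genes. SOD1, the cytosolic superoxide dismutase, was at 0, 125, 384 and 15.3 TPM in the younger and 5.18, 46.7, 585 and 339 TPM in the older libraries. The 2 below 0 were the peroxiredoxins PRDX3 and PRDX5, at −2.18 and −3.08. Both genes tested for heat shock and both for cholesterol synthesis were also above 0, and the 1 immediate-early gene, JUNB, was below. None of these passed the test, and each list held members whose groups overlapped.

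Housekeeping lists followed the genes as a whole. Of 23 nuclear-encoded respiratory chain genes 18 were below 0, with a median of −0.75 (−0.29 without 10-yr-old females), and 2 had an unadjusted p under 0.05. COX7B, a subunit of cytochrome c oxidase, was at 184, 180.0, 726 and 508 TPM in the younger libraries and at 0, 73.5, 0 and 9.60 TPM in the older ones, and it is one of the 46 lower genes. NDUFA4, a further subunit of the chain, was at 103, 106, 179 and 118 TPM against 0, 0, 233 and 0 TPM, so that 20-yr-old females exceeded every younger library. COX5A stood on the other side, at 80.5, 0, 0 and 0 TPM against 706, 0, 422.5 and 157 TPM. Medians of the 11 proteasome and ubiquitin genes (−0.87 and −0.19), the 26 ribosomal protein genes (−0.79 and −0.36) and the 13 mitochondrially encoded genes (−0.91 and −0.01) lay close to that of all genes.

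**Figure D4:**
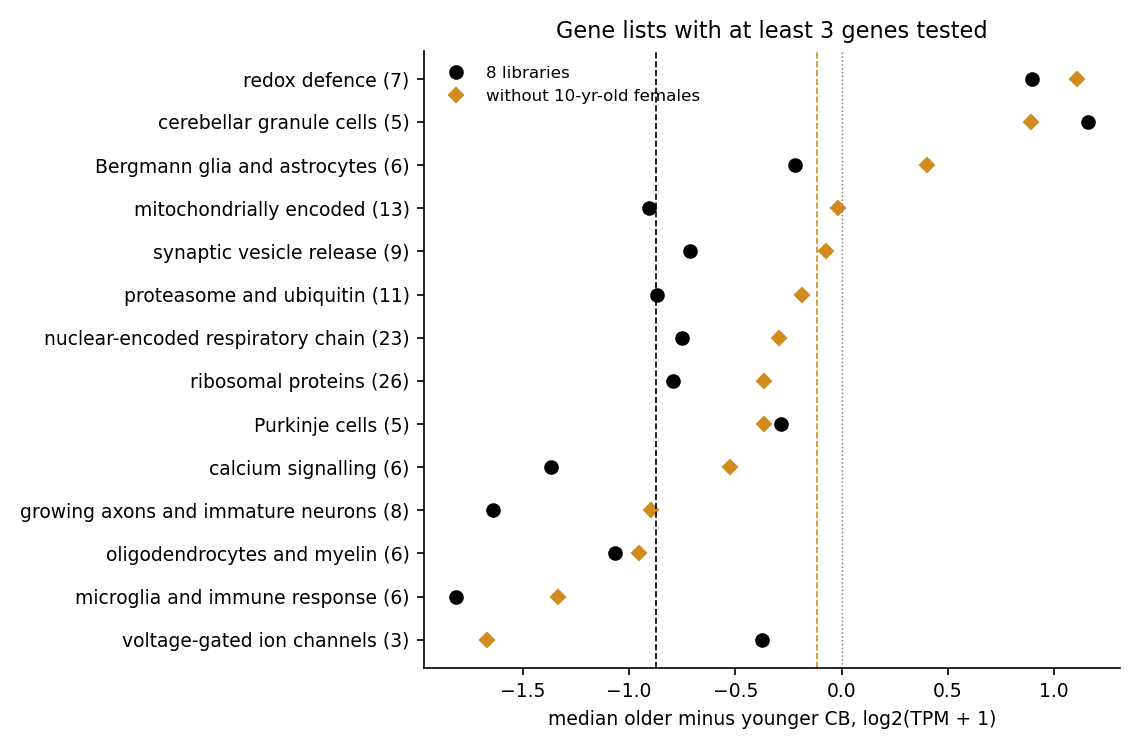
Median older minus younger difference in log2(TPM + 1) (horizontal axis) of each gene list with at least 3 genes tested (rows, number tested in brackets), with all 8 libraries as black circles and without the library of 10-yr-old females as orange diamonds. Dashed lines mark the medians of all 1811 genes, −0.87 and −0.12; redox defence (0.90) and granule cells (1.16) lie to the right of 0 in both.

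CAGE-seq also shows where in a gene the tags lie. By TPM the share near gene starts did not overlap between the groups, although the difference did not pass after adjustment. Of the TPM listed, the part lying within 500 nt of the start of its gene was 47.8%, 46.9%, 51.2% and 49.0% in the younger libraries and 56.3%, 56.3%, 53.1% and 54.2% in the older ones. The older libraries were all higher, at 55.0% ± 1.60 against 48.7% ± 1.84 (SD, n = 4 each), a difference of 6.24 percentage points (exact permutation test, two-sided, p = 0.0286, the smallest that 70 arrangements allow; adjusted p = 0.152 over 16 library measures, which does not pass). The share of 10-yr-old males equalled that of 10-yr-old females, and both 20-yr-old libraries also exceeded the younger ones. Without the 20 most abundant genes the shares were 50.1% to 56.3% and 59.5% to 63.0%, and without CLU the difference was 6.07 points. Within 100 nt of a start the shares were 31.1% ± 2.52 and 38.5% ± 4.88, and the groups overlapped (exact p = 0.0571). The share in the last 20% of the length of a gene, beyond 500 nt, was 27.5% ± 0.866 in the younger and 24.9% ± 1.62 in the older libraries, and that in the stretch between was 23.8% ± 2.50 and 20.2% ± 0.526. Counted by listed TCs in place of TPM, the groups overlapped. In 4-yr-old females 34.4% of TCs lay within 100 nt of a start and 16.1% at 100 to 500 nt. The values in 20-yr-old males were 31.5% and 16.9%.

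Summed over all genes, the mean TPM within 500 nt of a start was 59579 higher in the older group and that beyond it changed by −19262. CLU contributed 4546 TPM and POLR2J 3404 TPM near their starts, while SYP accounted for −5894 TPM far from its start. GPX4 went the other way, with 6323 TPM more in the older group near the end of the gene, and BEX1 contributed −4077 TPM near its start. By position, 15 of the 46 lower genes (32.6%) and 10 of the 12 higher genes (83.3%) had most of their signal within 500 nt of a start, against 975 of all 1811 genes (53.8%). The signal of a gene is pooled here over the 8 libraries. That of a lower gene is thus mostly from younger libraries and that of a higher gene mostly from older ones. These counts are therefore not separate from the library shares above. No test was run on these shares, as the genes were chosen by the values themselves. Over all genes tested, those mostly near and mostly far from a start had medians of −0.86 and −0.92, and of −0.00 and −0.21 without 10-yr-old females.

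**Figure D5:**
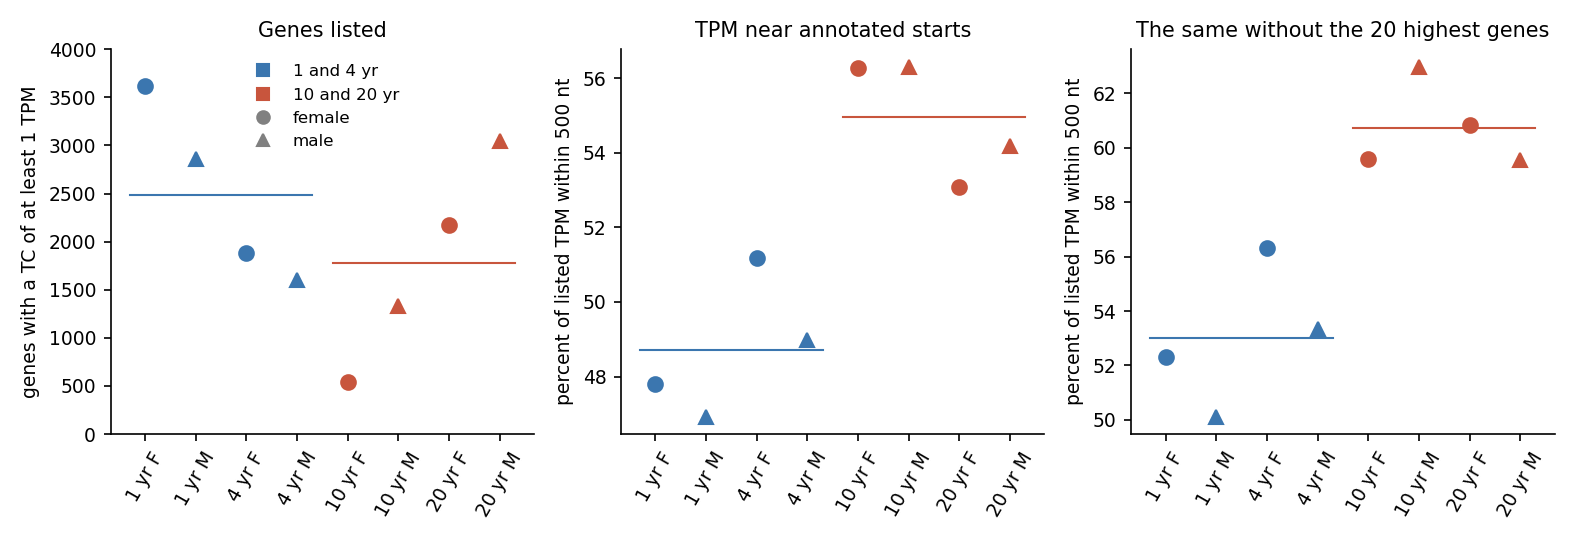
Genes listed (left), percent of the TPM that lie within 500 nt of a gene start (middle) and the same percent without the 20 most abundant genes (right) in each CB library (horizontal axis, age and sex), circles female and triangles male, blue younger and red older, with lines at the group means. The number of genes listed overlaps between the groups, whereas the share near starts is 46.9% to 51.2% in the younger and 53.1% to 56.3% in the older libraries.

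Most single TCs were not shared between libraries. Of 20892 TCs in CB, 17298 (82.8%) were listed in 1 library and 27 in all 8. When TCs less than 20 nt apart were joined across libraries, 72.1% of 16453 were in 1 library and 86 in all 8. POLR2J and CLK4, with signal at neighboring positions in different libraries, are examples, and levels were therefore compared by gene.

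The same contrast was taken in the other 7 regions to ask whether the differences were particular to CB. For each age and sex, the mean log2(TPM + 1) of the other regions was subtracted from that of CB, and the older and younger differences were compared in limma. None of the 1811 genes passed (0.0%), 89 had an unadjusted p under 0.05, and the smallest adjusted p was 0.571. The median of CB minus the others was −0.42, and the other regions by themselves had a median of −0.37. Without 10-yr-old females the median of CB minus the others was 0.13, 93 genes had an unadjusted p under 0.05, and the smallest adjusted p was 0.694. THOC2 differed by 0.20 in the other regions and by −7.69 in CB minus the others (adjusted p = 0.571), and POLR2J by 1.66 and 6.39 (adjusted p = 0.911). CLU differed by 0.53 in the other regions, close to its 0.63 in CB, and CHGB by −1.96 against −1.51 in CB. SYP differed by −0.19 in the other regions and by −1.16 in CB minus the others. The share of TPM within 500 nt of a start was 1.15 points higher in the older libraries of the other regions (exact p = 0.171), and the change in CB exceeded it by 5.09 points (exact p = 0.0857), which does not pass.

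Neighboring ages were compared last, with 2 libraries at each age, and no gene passed in any step (0.0% of 1811 each). From 1 to 4 yr the median was −1.35, with 150 genes at an unadjusted p under 0.05 and a smallest adjusted p of 0.378. From 4 to 10 yr the median was −1.45, with 225 such genes and a smallest adjusted p of 0.109, and from 10 to 20 yr it was 2.79, with 344 and 0.119. The number of genes listed was also lowest at 10 yr, and whether it accounts for these medians was not tested. When the test was limited to the 870 genes with at least 1 TPM in 6 of the 8 libraries, 40 genes passed as lower and 2 as higher at 10 than at 4 yr, with a smallest adjusted p of 0.0331. Of the 40 lower genes 39 were listed at 0 in both libraries of 10-yr-old animals; such a gene enters this test only if it is listed in all 6 others, so their count is set in part by the filter. The 2 higher genes, named after their values were seen, are POLR2J and RAB11FIP3, an effector of recycling endosomes. RAB11FIP3 was at 153, 73.8, 0 and 0 TPM in the younger libraries and at 1107, 557, 2.01 and 26.7 TPM in the older ones, so both libraries of 10-yr-old animals were above the other 6. CDK5, a neuronal kinase, is among the 40 and was at 71.3, 273, 436 and 336 TPM in the younger libraries, at 0 in both of 10 yr, and at 161 and 40.0 TPM in those of 20 yr.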

How the data were processed

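CAGE-seq 5′ ends were aligned by the authors with TopHat2 and combined into TCs, whose deposited values are tags scaled to the library total (called TPM, here RPM with no length correction), with MMUL 1.0 coordinates and gene assignments; no version is given in the sources used here. From these values, TPM were summed per gene in the 8 CB libraries, and genes with at least 1 TPM in 4 libraries were kept. log2(TPM + 1) was fitted with limma 3.58.1 in R 4.3.3 (two-sided, Benjamini-Hochberg, threshold 0.05), with older against younger as the main comparison; this pseudocount understates the change of low genes. Library measures were compared with exact permutation tests in SciPy 1.17.1. Scripts were tested on simulated data. Named genes were those that did not overlap between the groups with the smallest p, up to 12 a direction, up to 4 members of each list, the 10 most abundant genes and the label markers. Genes, lists and tests were chosen with earlier results of these data known. Values of 0 are TCs not listed. Estimated depth was 3210000 to 5797000 tags. Whole tag counts could not be recovered for all values, so no count test was run. Restricting the fit to genes listed in all libraries, leaving out both 10-yr libraries, remaking the filter without the library of 10-yr-old females, the variance trend and leaving out the 20 most abundant genes were added after seeing the data.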

Additional observations from a re-analysis of the deposited data

Results flagged for a closer look

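In 139 groups of 4 libraries, over the library measures and the genes whose values are given, 28 held a library whose gap to the nearest other exceeded Dixon's 95% critical value, where chance gives about 1 in 20 for normally distributed values. A group with 1 library above 0 and the rest at 0 is always flagged, so that rate does not hold for such groups. Among the marker sums, the inhibitory neuron genes reached 99.7 TPM in 1-yr-old males and 2.60 TPM in 20-yr-old males, the oligodendrocyte precursor genes 7.55 TPM in 1-yr-old females, and the genes of cerebral cortex and hippocampus neurons 1393 TPM in 10-yr-old females, which was NPTX1 alone. Among the lower genes, RPS6KB2 stood apart at 605 TPM in 4-yr-old males, and 4 genes stood apart through a single low value where the other older libraries were at 0: CACNG7 at 15.8 TPM and UNC45A at 2.58 TPM in 20-yr-old females, and UGP2 at 16.4 TPM and LRRC4B at 5.19 TPM in 20-yr-old males. Among the higher genes, POLR2J reached 397 TPM in 1-yr-old females against 0 to 49.1 TPM in the other younger libraries, and PPP1CA 1563 TPM in 10-yr-old females. FEZ1 at 1252 TPM and POLR2I at 5865 TPM were both high in 20-yr-old females; the other older POLR2I values were 3098 to 3278 TPM.

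Among the other genes, the library of 10-yr-old females was the high one of the older group for APOE (7666 TPM), CHGB (1618 TPM) and CBLN1 (1518 TPM), that of 10-yr-old males for FTL (206 TPM) and COX7B (73.5 TPM), and that of 20-yr-old females for CACNA1A (239 TPM), NDUFA4 (233 TPM) and PRDX5 (20.6 TPM). In the younger group, 1-yr-old males stood apart for NEUROD1 (592 TPM), GFAP (150.02 TPM), ZIC1 (74.1 TPM) and GABRA6 (42.1 TPM), 1-yr-old females for COX5A (80.5 TPM) and 4-yr-old males for SNCG (5239 TPM). GABRA6 was also listed in 20-yr-old males alone among the older libraries, at 40.7 TPM.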

How the results depend on the processing

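No paired analysis was possible because the CB libraries carry no replicate numbers and no animal is in both groups; with sex as a covariate 0 genes passed, 109 had an unadjusted p under 0.05 and the smallest adjusted p was 0.528. The count of genes passing between older and younger CB stayed at 0 higher under the alternatives run, and 0 lower under all but 1: without a filter, with 6142 genes fitted, 3 genes passed as lower, THOC2 and PPP2R5D (adjusted p of 0.0427 each) and CLK4 (0.0470). These 3 genes are at 0 in every older library, so their older values show no spread. The genes added to that fit are listed in fewer than 4 libraries and enter the variance common to all genes. Quantile normalization moved the median difference of all genes from −0.87 to 0, and a term for the number of listed TCs moved it to 0.08, with 140 and 115 genes at an unadjusted p under 0.05 and none passing. For neighboring ages, genes listed in 6 of 8 libraries gave 2 higher and 40 lower at 10 than at 4 yr. The number of genes lower in every older library was 22 with the 6-of-8 filter and 18 with TCs within 500 nt of a start, both of which test fewer genes (870 and 1046). Leaving out each library gave 18 to 62 genes higher and 59 to 124 lower in all older libraries; the fewest lower and the most higher came without 10-yr-old females, and the most lower without 20-yr-old males. Of 435 alternative values of the 19 named genes 0 reversed. These genes were chosen because their groups do not overlap, so leaving out a library could not reverse them. The count was largely set by that choice. Of 146 alternative values of the library measures 6 reversed, all on leaving out 1 library. The older minus younger difference of the summed Purkinje cell markers, 30.7 TPM with all libraries, ran from −313 to 439.7 TPM, with −22.0 and −121 TPM on omitting the female or the male library of 4 yr, −66.6 TPM on omitting 10-yr-old females and −313 TPM on omitting 20-yr-old females. That of the microglial markers (445 TPM) ran from −11.9 to 781 TPM, and that of cortex and hippocampus markers (231 TPM) from −103 to 361 TPM, the lowest being the values when 10-yr-old females were omitted. The planned count tests were not run. Values of 0 limit these data. A TC under 4 to 6 tags has no value, and the library of 10-yr-old females left 1369 of the 1811 genes at 0. Among these is RAB13, which was at 231 to 2163 TPM in the other libraries. The reason for these values of 0 was not tested.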
